A study of Mus musculus with 24 samples.

Results

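The genes described here encode the main enzymes and coat proteins of the adipocyte lipid droplet, and they were read out in epididymal white adipose tissue (eWAT) of mice that lack laminin α4 in adipocytes and of their controls. They were chosen by name as 9 genes: Pnpla2, Lipe, Mgll, Abhd5, G0s2, Plin1, Plin2, Plin4 and Cidec. All 9 were among the 16730 genes of the deposited count table, and all 9 passed the filter on low counts that left 15020 genes for testing. The 24 libraries came from 24 male mice in 4 groups of 6. Controls were Lama4 fl/fl mice, which carry Lama4 alleles with exon 3 between loxP sites and no Cre, and Lama4 AKO mice were littermates that also carry Cre under the adiponectin promoter, which is active in adipocytes. The other cells of the depot therefore keep Lama4. Mice of each genotype ate either a chow diet or a high-fat diet (HFD) with 45% of energy from fat for 20 weeks, and were 24 to 26 weeks old when the tissue was taken. The study's figure legends give chow from weaning to an age of 24 weeks, and HFD between 6 and 26 weeks of age. Diet and age at collection therefore cannot be told apart in any comparison of HFD with chow. The comparisons address how the tissue's transcripts differed with the diet and with the adipocyte deletion.

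Lipolysis is the stepwise release of fatty acids from stored triglyceride. Adipose triglyceride lipase, encoded by Pnpla2, removes the first fatty acid, hormone-sensitive lipase (Lipe) acts mainly on the diglyceride that is left, and monoglyceride lipase (Mgll) completes the sequence. CGI-58, the product of Abhd5, is the coactivator of adipose triglyceride lipase, and G0s2 encodes its inhibitor. Perilipin 1 (Plin1) coats the droplet of mature adipocytes, holds CGI-58 in the resting cell and releases it when protein kinase A phosphorylates the coat. Perilipin 4 (Plin4) coats small nascent droplets, perilipin 2 (Plin2) is the droplet coat of most other cells, including lipid-laden macrophages, and Cidec (FSP27) moves lipid from smaller to larger droplets.

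In the GRCm38 annotation (GENCODE M21) each of the 9 is a protein-coding gene, and the positions deposited with the counts were the same as the annotated ones. Pnpla2 lies at chr7:141455198-141460743 on the plus strand, Lipe at chr7:25379527-25398710 on the minus strand and Mgll at chr6:88724412-88828360 on the plus strand. Abhd5 lies at chr9:122351608-122381524 on the plus strand and G0s2 at chr1:193272161-193273217 on the minus strand. Plin1 (chr7:79720218-79732903), Plin2 (chr4:86648386-86670060), Plin4 (chr17:56100591-56109803) and Cidec (chr6:113424634-113435760) are all on the minus strand. The assay counts reads near the 3′ end of a transcript. A gene on the opposite strand covers that end of Lipe (4732471J01Rik), of Abhd5 (A730085K08Rik), of G0s2 (Lamb3) and of Plin4 (Hdgfl2), and the strand setting of the counting is not given in the sources used here.

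Promoter windows are printed for 3 members whose transcripts behaved differently across the mice, as the values below show: Plin1 varied with the adipocyte markers, Plin2 against them and Abhd5 little. Each window runs from 250 bases before to 50 bases after a transcription start (RefSeq, build GRCm38.p6), read 5′ to 3′ on the strand of the gene, and capitals mark AGGTCA or its reverse complement TGACCT, the half-site of nuclear hormone receptors. The windows are chr7:79732727-79733026 on the minus strand for Plin1, chr4:86670010-86670309 on the minus strand for Plin2 and chr9:122351366-122351665 on the plus strand for Abhd5.
Plin1: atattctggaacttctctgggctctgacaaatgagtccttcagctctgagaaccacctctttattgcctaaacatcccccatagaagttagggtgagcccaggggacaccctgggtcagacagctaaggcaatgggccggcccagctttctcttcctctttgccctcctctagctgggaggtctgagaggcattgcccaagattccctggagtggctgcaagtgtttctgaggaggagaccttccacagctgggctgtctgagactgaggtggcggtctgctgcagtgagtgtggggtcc
Plin2: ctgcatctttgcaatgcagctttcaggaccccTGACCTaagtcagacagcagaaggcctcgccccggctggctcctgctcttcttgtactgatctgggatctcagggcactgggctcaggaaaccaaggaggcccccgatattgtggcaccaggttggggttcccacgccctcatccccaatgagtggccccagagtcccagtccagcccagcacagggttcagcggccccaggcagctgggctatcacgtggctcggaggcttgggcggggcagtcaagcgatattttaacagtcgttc
Abhd5: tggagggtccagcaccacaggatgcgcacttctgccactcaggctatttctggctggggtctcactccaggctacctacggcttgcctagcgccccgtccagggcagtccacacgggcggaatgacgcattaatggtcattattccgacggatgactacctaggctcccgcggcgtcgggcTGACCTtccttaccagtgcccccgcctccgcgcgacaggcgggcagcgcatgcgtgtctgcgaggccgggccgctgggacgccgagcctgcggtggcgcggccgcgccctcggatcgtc
The 9 genes matched 12 windows, since Lipe, Mgll and Cidec have 2 starts each. The half-site was found in 2 of these 12 windows, those of Plin2 and Abhd5, against 16.3% of the 32851 promoter windows of the genome. The same windows were searched on both strands for 6 other motifs. A direct repeat of the half-site with 1 base between the copies was in no member window (0.0396% of all windows), and TATAAA was in none either (13.6%). CCAAT was in 2 of the 12 member windows, those of Plin2 and Plin4 (37.4% of all windows). CACGTG was in 3 of the 12, of Lipe, Mgll and Plin2 (7.15%), and GGGCGG in 7 of the 12, of 6 members (35.7%). TTGCNNAA was in 2 of the 12, of Plin1 and Cidec (10.8%). These are matches of letters only, and no binding was measured.

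Library totals ran from 5579590 to 18764516 counts with a median of 13693204, and mitochondrial genes took 5.77% to 12.8% of the counts. The targeted gene did not separate the genotypes on chow, with a median of 113 CPM (counts scaled to the size of the library) in the libraries labelled chow AKO and 91.7 CPM in chow fl/fl (log2 fold change 0.11 ± 0.34 SE, adjusted p = 0.98 in edgeR's quasi-likelihood test). On HFD the medians were 44.3 CPM in AKO and 78.7 CPM in fl/fl (−0.69 ± 0.35, adjusted p = 0.347). The reads come from the 3′ end, outside the deleted exon, so the count is no direct check of the deletion, and AKO below means the libraries labelled so. By quantitative PCR the study reports lower Lama4 in eWAT of chow-fed AKO mice than in controls. The first principal component of log2 CPM held 45.8% of the variance and did not follow the groups alone. HFD fl/fl replicates 4 and 6 lay among the chow libraries at −76.1 and −60.4, whereas HFD fl/fl replicates 1, 2 and 5 lay between 48.2 and 73.5. The study's methods describe the removal of outlier libraries without naming them. Results are therefore given over all 24 mice and over 19 mice, without chow fl/fl replicate 3, chow AKO replicate 5 and HFD fl/fl replicates 3, 4 and 6, the 5 libraries inferred to be those removed. These libraries were picked by their expression profile, with which the members vary, so the values over 19 mice are not independent evidence. Chow fl/fl replicate 1 (−91.8) and HFD AKO replicate 6 (0.85) also lay away from their groups and stayed among the 19. The adipocyte markers were abundant in every library, at 12200 to 58300 CPM summed over 10 genes.

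The 3 lipases spread widely from mouse to mouse within a group. Pnpla2 was measured at 513 to 2160 CPM in chow fl/fl mice (median 727), at 505 to 1200 CPM in chow AKO mice (median 933), at 297 to 1390 CPM in HFD fl/fl mice (median 600) and at 349 to 751 CPM in HFD AKO mice (median 517). The highest library was chow fl/fl replicate 1 and the lowest HFD fl/fl replicate 1, 7.27-fold apart, and every pair of groups overlapped. Lipe ran from 346 to 1790 CPM in chow fl/fl (median 555), from 409 to 1350 CPM in chow AKO (median 873), from 236 to 1390 CPM in HFD fl/fl (median 468) and from 271 to 595 CPM in HFD AKO (median 326). In HFD AKO mice 4 of 6 Lipe values were below every chow AKO value, while the HFD fl/fl values spread over nearly the whole range. Mgll ran from 892 to 2230 CPM in chow fl/fl (median 1160), from 975 to 2020 CPM in chow AKO (median 1640), from 581 to 2280 CPM in HFD fl/fl (median 1020) and from 678 to 1560 CPM in HFD AKO (median 703). For Mgll 5 of 6 HFD AKO mice lay between 678 and 797 CPM, below every chow AKO mouse, and replicate 6 stood at 1560 CPM.

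The coactivator and the inhibitor of adipose triglyceride lipase differed in how much they varied. Abhd5 stayed within 82.3 to 164 CPM over all 24 mice, a 2-fold range, with group medians of 120 CPM in chow fl/fl, 122 CPM in chow AKO, 114 CPM in HFD fl/fl and 116 CPM in HFD AKO. Across the other 8 members the highest library was 3.92 to 14.6 times the lowest. G0s2 ran from 196 to 558 CPM in chow fl/fl (median 313), from 145 to 577 CPM in chow AKO (median 303), from 79.5 to 491 CPM in HFD fl/fl (median 200) and from 111 to 213 CPM in HFD AKO (median 145). The HFD fl/fl mice fell apart for G0s2, with 101, 79.5 and 149 CPM in replicates 1, 2 and 5 and 252, 491 and 453 CPM in replicates 3, 4 and 6.

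The coat proteins went in different directions. Plin1 ran from 439 to 1510 CPM in chow fl/fl (median 649), from 459 to 1270 CPM in chow AKO (median 871), from 306 to 1320 CPM in HFD fl/fl (median 516) and from 329 to 730 CPM in HFD AKO (median 371). Plin4 had the widest range, with 530 to 3030 CPM in chow fl/fl (median 784), 566 to 1670 CPM in chow AKO (median 1210), 207 to 1920 CPM in HFD fl/fl (median 612) and 283 to 1010 CPM in HFD AKO (median 410). Cidec ran from 634 to 3000 CPM in chow fl/fl (median 1060), from 694 to 2190 CPM in chow AKO (median 1680), from 801 to 2450 CPM in HFD fl/fl (median 906) and from 639 to 1290 CPM in HFD AKO (median 674). Each of these 3 was highest in chow fl/fl replicate 1. Plin2 was lowest in that same library, at 463 CPM, and highest in HFD fl/fl replicate 1, at 2960 CPM. Its medians were 1010 CPM in chow fl/fl (463 to 1790), 957 CPM in chow AKO (503 to 1590), 1530 CPM in HFD fl/fl (641 to 2960) and 1750 CPM in HFD AKO (1180 to 2260).

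The order of the group medians was the same for Pnpla2, Lipe, Mgll, Plin1, Plin4 and Cidec, from chow AKO through chow fl/fl and HFD fl/fl down to HFD AKO. For G0s2 the chow groups changed places, for Abhd5 the HFD groups did, and for Plin2 the order was HFD AKO, HFD fl/fl, chow fl/fl and chow AKO. For all 9 genes every pair of neighbours in the order overlapped, so the order of neighbouring groups is within the spread between mice.

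**Figure D1:**
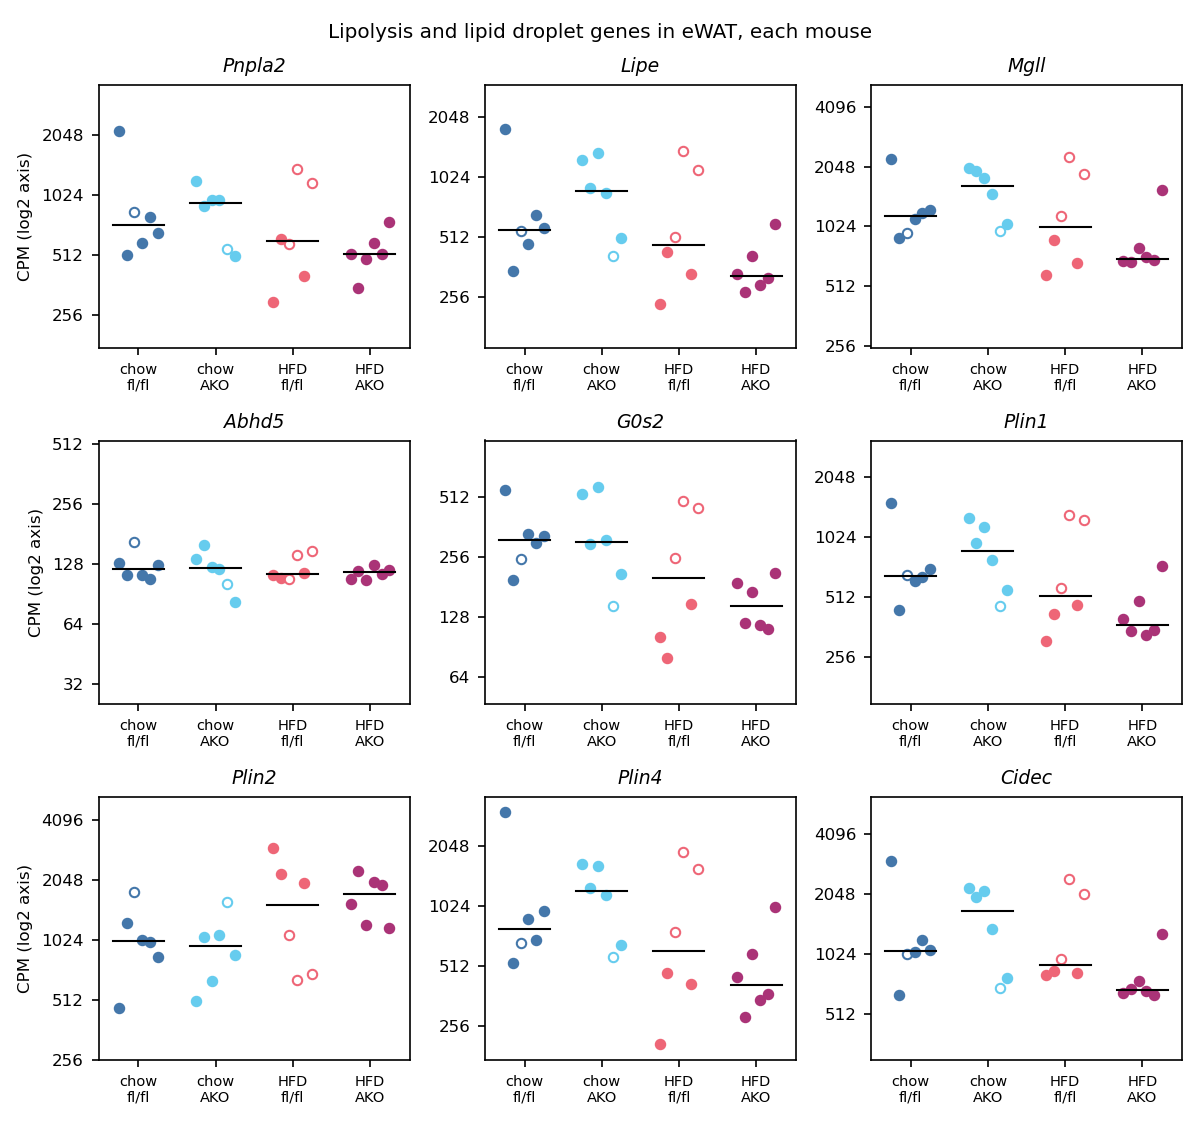
CPM of each of the 9 genes on a log2 axis in each mouse, by group, with replicates in numerical order from left to right and a black line at the group median; open circles are the 5 libraries left out of the 19-mouse values. All panels span the same fold range: Abhd5 stays within 82.3 to 164 CPM, Plin4 spans 207 to 3030 CPM, and 2 open circles of the HFD fl/fl group lie at chow levels in most panels.

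Under HFD, AKO mice had lower transcript levels of Lipe and G0s2 than AKO mice on chow, at an adjusted p of at most 0.05. Lipe fell by 1.24 on the log2 scale (SE 0.43, 2.37-fold lower, adjusted p = 0.0413) and G0s2 fell by 1.17 (SE 0.40, 2.24-fold lower, adjusted p = 0.0417). Adjustment is Benjamini-Hochberg over all 15020 genes. These are 2 of 9 members, where 12.9% of all genes tested were lower at that threshold. No member was higher, against 9.13% of all genes. None of the 9 met the study's stricter criteria for a call (a 1.5-fold difference or more, a nominal p no higher than 0.001, and 2 CPM or more on average in whichever group was higher), which 4.12% of all genes met. Both results depended on single mice: with 1 mouse left out at a time, the adjusted p went from 0.0201 to 0.104 for Lipe and from 0.0178 to 0.114 for G0s2, and exceeded 0.05 in 9 of 24 fits for each. Those fits left out chow AKO replicates 1, 2, 3 or 4 or HFD AKO replicates 1, 2, 3, 4 or 5. Lipe reached 0.0562 with the replicate number as a block, and G0s2 0.0638 with limma-voom.

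In edgeR over the 24 mice the other 7 members had an adjusted p above 0.05 in the AKO diet comparison. That count depended on the fit: DESeq2 put 6 of 9 members at or below 0.05 (Lipe, Mgll, G0s2, Plin1, Plin4 and Cidec, all lower), beside 28.8% of all genes, and edgeR with only these 2 groups in the fit put 8 of 9 there (all but Abhd5), beside 35% of all genes. By edgeR over 24 mice the differences (HFD minus chow, log2) were −1.19 ± 0.49 SE for Plin4 (adjusted p = 0.0798), −0.98 ± 0.36 for Plin1 (0.0526), −0.97 ± 0.38 for Cidec (0.0634), −0.85 ± 0.32 for Mgll (0.0572) and −0.66 ± 0.36 for Pnpla2 (0.172). Plin2 had the opposite sign, at 0.83 ± 0.36 (adjusted p = 0.0908). Abhd5 differed by −0.06 ± 0.14, with a 95% confidence interval of −0.36 to 0.23. Before adjustment 7 of 9 members had a p under 0.05, a share to be read against 39.8% of all genes in this comparison. The median of the 9 differences was −0.97, and that of all genes was 0.

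In fl/fl mice no member passed either threshold between diets over 24 mice. The differences were −0.36 ± 0.40 for G0s2, −0.34 ± 0.49 for Plin4, −0.31 ± 0.36 for Pnpla2 and 0.59 ± 0.36 for Plin2, and the other 5 lay between −0.13 and −0.01. Adjusted p was 0.642 or higher for all 9. Of all 15020 genes, 0 had an adjusted p of at most 0.05 in this comparison, so that result is not particular to the members. The call criteria were met by none of the 9 and by 0.173% of all genes. By edgeR 0 of 9 members had an unadjusted p under 0.05, beside 9.01% of all genes, and limma-voom and DESeq2 called 0 of 9 as well. The intervals were wide: that of Plin4 ran from −1.35 to 0.67 and that of Lipe from −1 to 0.74, so a 2-fold fall in either was not excluded by these mice.

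Over 19 mice the fl/fl comparison changed. With 3 HFD and 5 chow mice, G0s2 fell by 1.64 (SE 0.37, adjusted p = 0.00342) and Plin2 rose by 1.38 (SE 0.30, adjusted p = 0.00272), and these 2 members met the call criteria, as did 11.8% of all genes. All 3 HFD mice lay outside the range of the 5 chow mice for G0s2, Plin2, Plin4 and Mgll, 4 of 9 members, and 29.3% of all genes were separated in this way. Plin4 fell by 1.75 (SE 0.54, adjusted p = 0.0212) and Mgll fell by 0.92 (SE 0.32, adjusted p = 0.0402), and neither met the nominal p of a call. In the AKO diet comparison over 19 mice Lipe fell by 1.39 (SE 0.36, adjusted p = 0.00544), G0s2 fell by 1.33 (SE 0.29, adjusted p = 0.00184) and Plin2 rose by 1.03 (SE 0.26, adjusted p = 0.00464), 3 members called beside 15.7% of all genes. All 6 HFD AKO mice then had more Plin2 than any of the 5 chow AKO mice, the only member so separated, beside 16.7% of all genes. These counts depended on single mice: they ran from 0 to 2 in fl/fl, with 0 without HFD fl/fl replicate 1, and from 1 to 7 in AKO. The 7 appeared without chow fl/fl replicate 1 or without HFD AKO replicate 6, and 5 without chow AKO replicate 6. A count of 1 appeared without chow fl/fl replicate 5 or 6, chow AKO replicate 1 or 3, HFD fl/fl replicate 2, or HFD AKO replicate 1, 2, 4 or 5.

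Averaged over genotypes, HFD against chow gave no call among the 9 over 24 mice (2.25% of all genes), with the largest differences in Plin4 (−0.76 ± 0.35), G0s2 (−0.76 ± 0.28, adjusted p = 0.0665) and Plin2 (0.71 ± 0.25, adjusted p = 0.0612). Over 19 mice 6 of 9 were called, where 21.4% of all genes were. Of these, 5 fell (12.5% of all genes): Plin4 (−1.54 ± 0.34), G0s2 (−1.48 ± 0.24), Lipe (−1.3 ± 0.29), Plin1 (−1.05 ± 0.24) and Mgll (−0.94 ± 0.21). Plin2 rose by 1.21 (SE 0.20), in a direction in which 8.92% of all genes were called. Pnpla2 (−0.93 ± 0.27) and Cidec (−0.94 ± 0.27) missed the nominal p, and Abhd5 differed by −0.09 ± 0.10. Without HFD fl/fl replicate 1 as well, 2 members were left among the calls.

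Genotype made no detectable difference to the 9 transcripts on chow. The differences between AKO and fl/fl ran from −0.15 for Plin2 to 0.28 for Mgll, each with an SE of 0.14 to 0.49 and an adjusted p of 0.962 or higher. None was called, beside 0.113% of all genes (0.209% over 19 mice). By edgeR 0 of 9 members had an unadjusted p under 0.05, beside 5.85% of all genes.

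On HFD the libraries labelled AKO had lower values than fl/fl for 8 of 9 members, none past the threshold. The differences were −0.85 ± 0.42 for Lipe, −0.81 ± 0.49 for Plin4, −0.76 ± 0.37 for Cidec, −0.73 ± 0.40 for G0s2, −0.72 ± 0.36 for Plin1, −0.54 ± 0.32 for Mgll and −0.48 ± 0.36 for Pnpla2. Adjusted p was between 0.34 and 0.912 for the 9, and none was called, beside 0.173% of all genes. Of all 15020 genes, 0 had an adjusted p of at most 0.05 over 24 mice. The direction depended on the set of libraries. With single mice left out in turn, all 8 members stayed lower in AKO (Lipe −1.05 to −0.5, Abhd5 −0.15 to −0.02). Over 19 mice 7 of these 8 changed sign, as did Plin2, and the values were 0.48 ± 0.34 for G0s2, 0.48 ± 0.50 for Plin4, 0.29 ± 0.39 for Pnpla2, 0.16 ± 0.42 for Lipe and −0.49 ± 0.29 for Plin2. Cidec alone kept its sign (−0.08 ± 0.38). The fit over 19 mice left out the HFD fl/fl replicates with chow-like levels together with other libraries. The part of those replicates alone in the change of sign was not tested. None was called over 19 mice, beside 0.565% of all genes. By edgeR over 24 mice 0 of 9 members had an unadjusted p under 0.05, beside 14.8% of all genes.

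The test of whether the diet difference itself differed between genotypes called none of the 9 (0.386% of all genes over 24 mice and 0.68% over 19 mice). The interaction was largest for Lipe, at −1.12 ± 0.60 (adjusted p = 0.354), and ran from −1.12 to 0.24 over the 9. So the lower Lipe and G0s2 of AKO mice on HFD was not shown to differ from the diet difference in fl/fl mice. The 4 comparisons between groups share libraries with one another and are not independent.

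**Figure D2:**
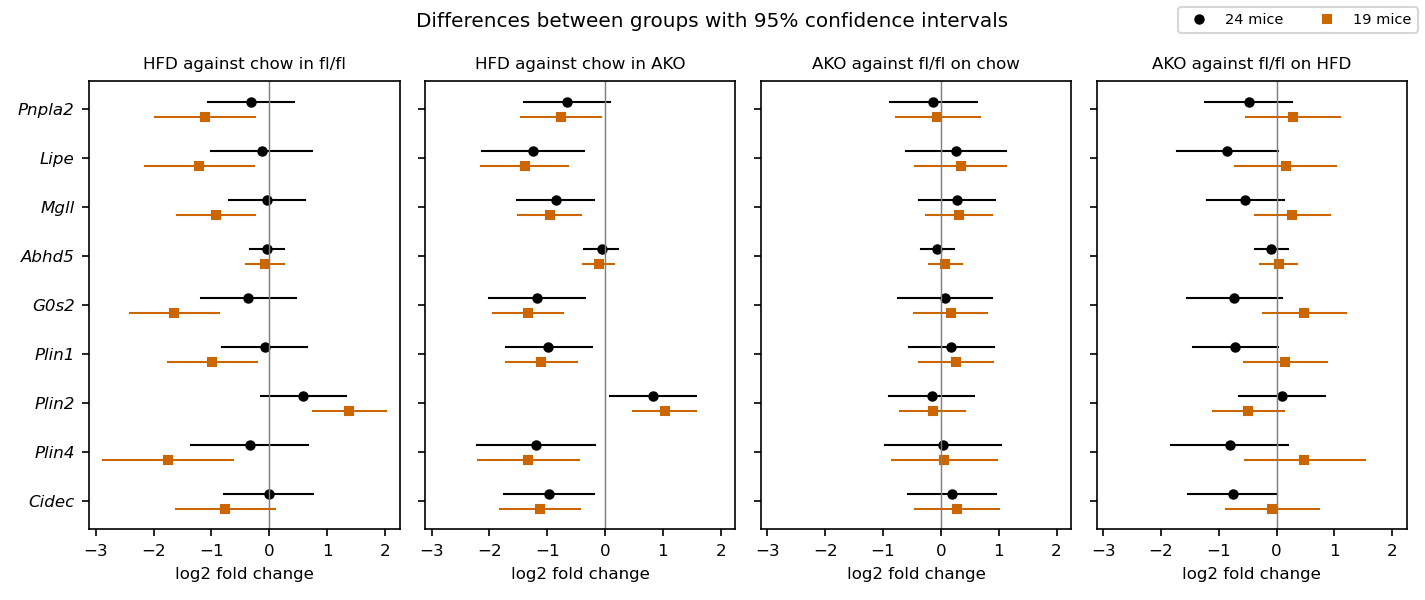
Log2 fold change of each gene in 4 comparisons, with 95% confidence intervals; black circles are fits over 24 mice and orange squares fits over 19 mice. In AKO mice the intervals for HFD against chow are similar in both fits, in fl/fl mice they shift (G0s2 from −0.36 to −1.64), and on HFD the genotype difference changes sign for 8 of 9 genes.

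Ratios between 2 members within a library need no scaling between libraries. The ratio of Plin2 to Plin1 counts had a median of 1.61 in chow fl/fl (0.306 to 2.84), 1.24 in chow AKO (0.395 to 3.46), 3.08 in HFD fl/fl (0.487 to 9.67) and 4.75 in HFD AKO (1.62 to 6.54). Between AKO diets the mean log2 ratio differed by 1.83, a 3.56-fold higher ratio on HFD (p = 0.0108 in a two-sided exact permutation test, 0.121 after adjustment over 28 ratio tests). The groups overlapped through chow AKO replicate 5 at 3.46 and HFD AKO replicates 6 and 3 at 1.62 and 2.53. In fl/fl mice the difference was 0.65 (exact permutation p = 0.465), with HFD replicates 4 and 6 at 0.487 and 0.55 and HFD replicates 1, 2 and 5 at 9.67, 5.27 and 4.27.

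The coactivator to lipase ratio, Abhd5 to Pnpla2, was 0.145 at the median in chow AKO (0.114 to 0.185) and 0.217 in HFD AKO (0.159 to 0.338), 1.51-fold higher by means of log2 ratios (exact permutation p = 0.00866, adjusted p = 0.121). The inhibitor to lipase ratio, G0s2 to Pnpla2, was 0.372 in chow AKO and 0.313 in HFD AKO (log2 difference −0.42, exact permutation p = 0.102). Lipe to Pnpla2 was 0.997 in chow AKO and 0.709 in HFD AKO (log2 difference −0.54, exact permutation p = 0.013, adjusted p = 0.121). It was the only ratio with an unadjusted exact permutation p under 0.05 between genotypes, with a log2 difference of 0.37 on chow (p = 0.0238) and −0.31 on HFD (p = 0.0476), and neither held after adjustment (0.167 and 0.222). Mgll to Lipe and Cidec to Plin1 differed by at most 0.30 on the log2 scale in every comparison. Plin4 to Plin1 differed by −0.26 between AKO diets (exact permutation p = 0.039, adjusted p = 0.218). None of the 28 tests had an adjusted p of at most 0.05, and the smallest p that 6 against 6 mice can give is 0.00216.

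**Figure D3:**
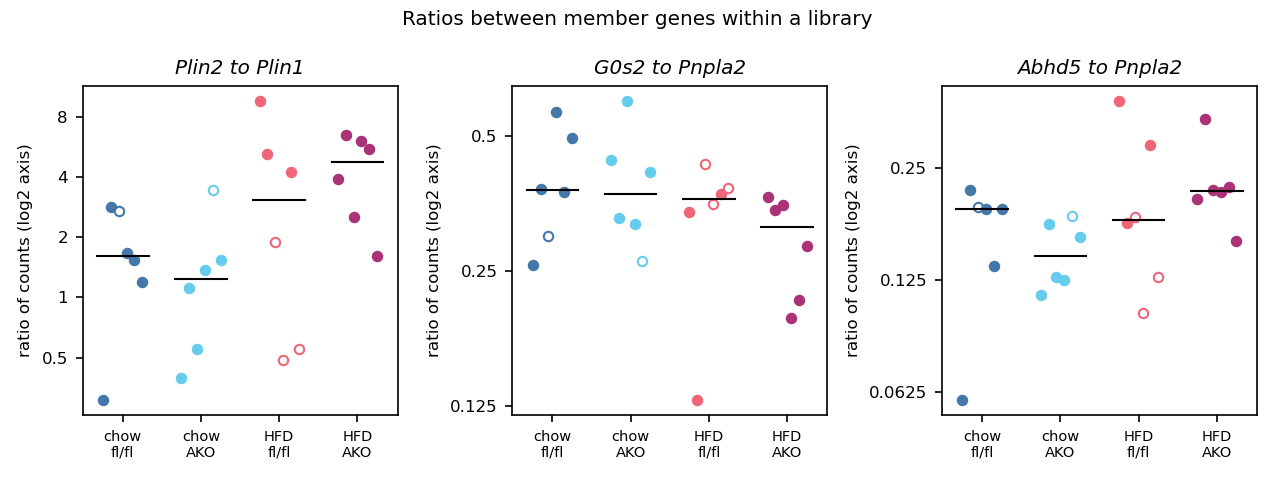
Ratio of the counts of 2 genes in the same library, on a log2 axis, in each mouse by group, with a line at the group median and open circles for the 5 libraries left out of the 19-mouse values. Plin2 to Plin1 runs from 0.306 to 9.67, and its 2 lowest HFD values are the HFD fl/fl replicates 4 and 6.

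Across mice, 7 of the members varied together. This grouping, of all members but Abhd5 and Plin2, was made after the values were seen and is a description. With each gene's log2 CPM centred within its group, the 21 pairs among the 7 had Pearson's r of 0.774 to 0.978 and Spearman's rho of 0.737 to 0.959 over 24 mice. Plin2 ran against each of the 7, with r of −0.908 to −0.773 (rho −0.89 to −0.647). Abhd5 had r of 0.461 to 0.624 with the 7 (rho 0.526 to 0.707). Each pair was tested with 100000 permutations within groups and adjusted over the 63 relations computed. The smallest unadjusted p that these permutations can give is about 1e-05, which for r became 1.43e-05 after adjustment. The adjusted p of r was between 1.43e-05 and 0.000235 for pairs among the 7, at most 0.000376 for Plin2 and at most 0.05 for Abhd5. The adjusted p of rho was at most 0.00063, 0.00457 and 0.0232, respectively. Without the 2 mice farthest from the median, r was 0.713 to 0.97 among the 7, −0.9 to −0.666 for Plin2 and 0.473 to 0.612 for Abhd5. Over the 19 mice the ranges were 0.606 to 0.965, −0.863 to −0.701 and 0.353 to 0.605. All of these values come from the same libraries and share their depth and composition. The 7 also followed the first principal component of all genes tested, with r of −0.949 to −0.844 within groups (adjusted permutation p at most 7.87e-05). For Plin2 that r was 0.93, and for Abhd5 −0.399 (adjusted permutation p = 0.0838). Pairs of genes outside the members were not computed, so joint variation is not shown to be particular to the 7.

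The genes outside the 9 whose group-centred log2 CPM was most like the mean of the 9 members' standardized values over 24 mice were Phlda3 (r = 0.974), Bnip3 (r = 0.974), Adipoq (r = 0.972), Rxrg (r = 0.971) and Fads3 (r = 0.97). Adipoq encodes the adipocyte hormone adiponectin.

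Within groups, the 7 members ran with the adipocyte markers and against the macrophage markers, and Plin2 did the opposite. In bulk tissue, fewer cells of a type and less RNA per cell cannot be told apart. The mean log2 CPM of 10 adipocyte markers had r of 0.849 to 0.972 with the 7 members within groups (adjusted permutation p at most 4.02e-05, rho 0.774 to 0.943, r without the 2 farthest mice 0.781 to 0.961). For 10 macrophage markers r was −0.925 to −0.858 (adjusted permutation p at most 0.000113, rho −0.881 to −0.733, r without the 2 farthest mice −0.909 to −0.747). Plin2 had r of −0.907 with the adipocyte markers and 0.888 with the macrophage markers (adjusted permutation p = 1.43e-05 for each). For Abhd5 r was 0.521 and −0.468 (adjusted permutation p = 0.0226 and 0.0543). Between AKO diets the adipocyte marker mean was 1.33 lower on HFD on the log2 scale (exact permutation p = 0.0108) and the macrophage marker mean 1.33 higher (exact permutation p = 0.00433). By gene, 7 of 10 adipocyte markers were lower and 2 of 10 macrophage markers higher at an adjusted p of at most 0.05 by edgeR. These and the marker counts below stand beside 12.9% of all genes lower and 9.13% higher. The summed adipocyte markers ran from 15500 to 51200 CPM in chow AKO and from 13000 to 22000 CPM in HFD AKO, and the summed macrophage markers from 2780 to 13400 CPM and from 10300 to 20000 CPM. No marker of either list was at 0 in any library. All 5 mast cell markers were also higher in HFD AKO by that test, with sums of 36.6 to 420 CPM on chow and 591 to 1940 CPM on HFD. Of 6 endothelial markers 3 were lower, with sums of 330 to 718 CPM on chow and 226 to 468 CPM on HFD. Of 5 mesothelial markers 2 were lower (median log2 difference −1.52 over the 5, sums of 25.5 to 144 CPM on chow and 9.38 to 49.4 CPM on HFD), and of 6 stromal progenitor markers 1 was higher (median 0.60 over the 6, sums of 2870 to 4220 CPM and 3820 to 4840 CPM). The part of these markers in the members' differences was not tested.

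The members were also set against the adipocyte markers of the same library. The markers were Adipoq, Cfd, Lep, Retn, Slc2a4, Pparg, Acvr1c, Lpl, Car3 and Adig, and Acvr1c is also in the upstream control list below. Whether the diet altered the markers within adipocytes was not tested. Dividing by the markers raises the HFD against chow difference of every gene in AKO mice by 1.33 on the log2 scale, and the differences below are relative to that scale. In AKO mice they became 0.16 for Lipe, 0.28 for G0s2, 0.12 for Plin4, 0.39 for Plin1, 0.46 for Cidec, 0.46 for Mgll, 0.70 for Pnpla2, 1.3 for Abhd5 and 2.22 for Plin2. The lowest exact permutation p were 0.00433 for Abhd5 and Cidec and 0.00649 for Plin2, and none of the 36 such tests had an adjusted p of at most 0.05 (lowest 0.0584). Lipe, at 0.16 (exact permutation p = 0.221), and G0s2, at 0.28 (exact permutation p = 0.0671), thus differed less from chow relative to the markers than on the CPM scale, and with the opposite sign. Between genotypes on HFD, G0s2 relative to the markers was 0.45 higher in AKO (exact permutation p = 0.00649, adjusted p = 0.0584).

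**Figure D4:**
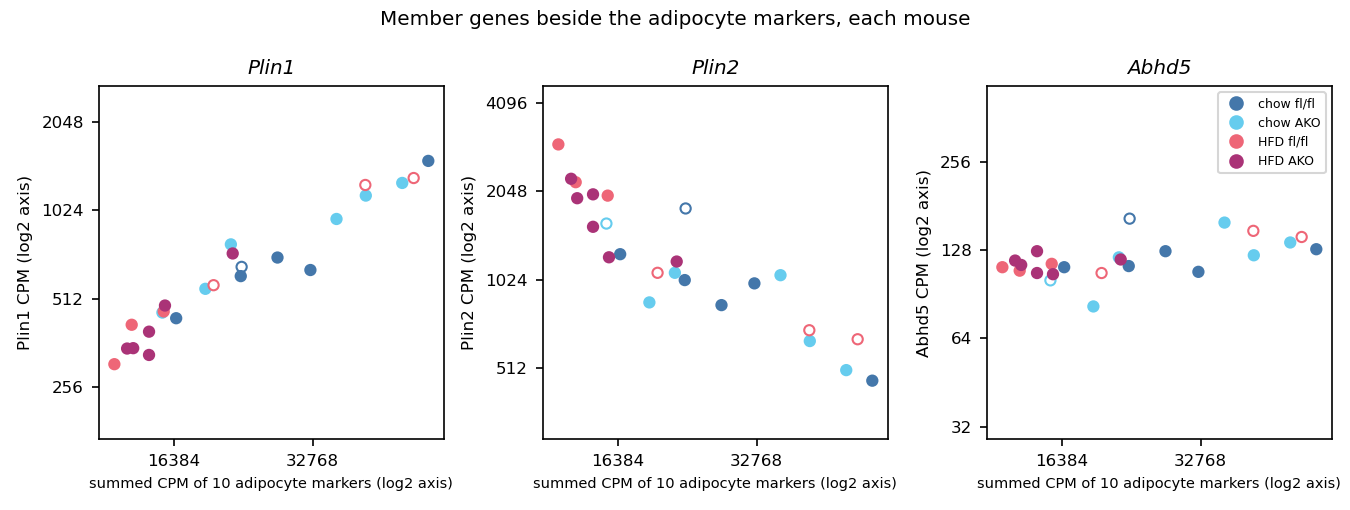
CPM of Plin1, Plin2 and Abhd5 in each mouse against the summed CPM of 10 adipocyte markers in the same library, both on log2 axes; colours are groups and open circles the 5 libraries left out of the 19-mouse values. Plin1 climbs with the markers in all groups, Plin2 declines from 2960 to 463 CPM, and Abhd5 stays within 82.3 to 164 CPM.

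Other genes of the pathway were followed in 3 lists of 68 genes, of which 66 were tested: upstream control of lipolysis (28 genes), other lipases and cofactors (16) and droplet coat and formation (24, of which Fitm1 and Spart were not tested). Between AKO diets 3 of the 66 genes met the call criteria, 4.55% beside 4.12% of all genes. Pik3r1, the regulatory subunit of the kinase through which insulin restrains lipolysis, fell by 1.72 (SE 0.35, adjusted p = 0.0124). Prkar2a, a regulatory subunit of protein kinase A, fell by 0.89 (SE 0.19, adjusted p = 0.0124). Npr3, the clearance receptor of natriuretic peptides, fell by 1.56 (SE 0.37, adjusted p = 0.0164).

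At an adjusted p of at most 0.05, 16 of the 66 genes were lower on HFD in AKO mice (24.2%, beside 12.9% of all genes) and 5 higher (7.58%, beside 9.13%). In upstream control 7 fell and 2 rose, the latter being Prkar1a (0.50 ± 0.12, adjusted p = 0.0153) and Adcy3 (1.10 ± 0.35, adjusted p = 0.0329). Among the other lipases 4 fell and 1 rose. Aqp7, the glycerol channel, fell by 1.28 (SE 0.36, adjusted p = 0.0239), Pnpla3, a relative of adipose triglyceride lipase, fell by 1.81 (SE 0.55, adjusted p = 0.0279), and Dagla, a diglyceride lipase, rose by 0.98 (SE 0.30, adjusted p = 0.0288). Of the droplet list 5 fell and 2 rose. Cav1, the caveolar coat protein, fell by 1.37 (SE 0.37, adjusted p = 0.022), Dgat1, which makes triglyceride, fell by 0.99 (SE 0.28, adjusted p = 0.0228), and Aifm2 fell by 0.91 (SE 0.26, adjusted p = 0.0232). The median difference was −0.68 in upstream control, −0.52 among the other lipases and −0.06 in the droplet list, beside 0 over all genes.

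In fl/fl mice, and between genotypes on either diet, none of the 66 genes was called or reached an adjusted p of 0.05 over 24 mice. In each of these comparisons 0 of all 15020 genes reached that adjusted p, and 0.113% to 0.173% were called. The absence is therefore not particular to the lists. Averaged over genotypes, Pik3r1 was the only gene of the 3 lists called over 24 mice (1.52% of the 66, beside 2.25% of all genes). Over 19 mice 2 of the 66 were called higher and 8 lower between fl/fl diets (15.2% in all, beside 11.8% of all genes), 4 higher and 15 lower between AKO diets (28.8%, beside 15.7%), and none between genotypes (beside 0.209% on chow and 0.565% on HFD).

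**Figure D5:**
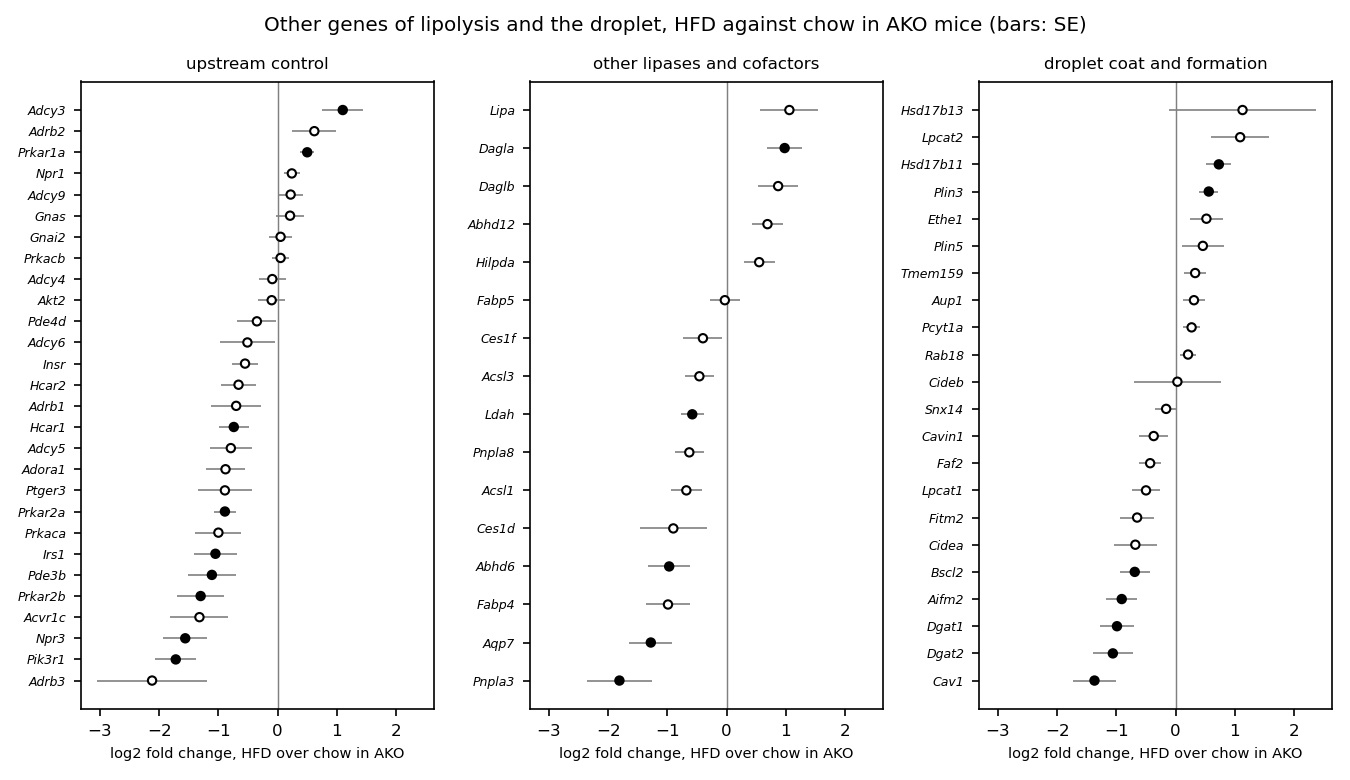
Log2 fold change of HFD over chow in AKO mice (24-mouse fit) for the 66 tested genes of the 3 lists, with SE as bars; filled circles have an adjusted p of at most 0.05. The lower genes include Pik3r1 at −1.72 and Pnpla3 at −1.81, and Adcy3 stands highest among the filled circles at 1.10.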

How the data were processed

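RNA of epididymal fat pads was sequenced from the 3′ end (Lexogen QuantSeq, 50-base forward reads) by the submitters. The authors deposited whole-number counts per gene on GRCm38 for 24 libraries, with no gene below 72 counts in total, and a second table of normalized counts (a signal scaled by DESeq2 1.30 in R 4.0.3, per the labels), from which gene symbols and positions were taken and no value. Counts were made with Rsubread per the study's methods, with settings not given in the sources used here.

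Genes reaching 1 CPM in 3 mice or more entered the fit with edgeR 4.0.16 (R 4.3.3; TMM factors, quasi-likelihood test, 1 coefficient per group). Log2 CPM used a prior count of 2. Calls followed the study's criteria (1.5-fold, nominal p of at most 0.001, mean of at least 2 CPM), with Benjamini-Hochberg adjustment over all genes. Single values were compared by two-sided exact permutation tests computed with numpy 2.4.6, and ranks for rho came from scipy 1.17.1. limma 3.58.1 and DESeq2 1.42.0 were alternatives. On simulated data for HFD against chow in AKO (14806 genes), the 200 changed genes were recovered by edgeR in 200 cases, by limma-voom in 198 and by DESeq2 in 200, with 9, 12 and 24 unchanged genes called. The changes put in were of 3 on the log2 scale, up or down, and only in genes above a minimum mean CPM. They were larger than any member difference reported here, so the recovery does not give the power at the members' differences. Replicates are separate mice per the labels.

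The members, lists, ratios and markers were chosen with earlier results of these data known. All 9 members are named. Other names are the wider-list genes called in a comparison or with the 3 lowest p of their list in HFD against chow in AKO, the 5 genes most alike and the adipocyte markers. Prkar1a and Adcy3 were named after their values were seen. The adjusted p of 0.05 was listed as an alternative call rule and was brought forward in the text after the values were seen. Added after seeing the data were the limma-voom fit of the 19 mice, leaving out each of the 19, r over the 19, the share of genes without overlap and the members at an adjusted p of 0.05 under each alternative. Of the promoter motifs first looked at, the sterol response element is not reported. Protein sequences were not used here.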

Additional observations from a re-analysis of the deposited data

Results flagged for a closer look

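Of 36 sets of 6 mice (9 genes in 4 groups), 5 held a mouse whose gap to its nearest neighbour exceeded Dixon's 95% critical value; chance alone gives such a gap in about 1 of 20 sets. In chow fl/fl replicate 1 was far above the others for Pnpla2 (11.08 log2 CPM), Mgll (11.12) and Plin4 (11.56). In HFD AKO replicate 6 was far above the others for Mgll (10.6) and Cidec (10.33). The libraries share these values across genes, so the 5 are not independent. Neither library was among the 5 left out of the 19-mouse values.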

How the results depend on the processing

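Over 24 mice, limma-voom, DESeq2, RLE size factors, both other filters, dropping the fold criterion and leaving out any 1 mouse gave 0 members called in all 6 comparisons. With only the groups compared in the fit, 1 member (Lipe) was called between AKO diets. The members with an adjusted p of at most 0.05 in that comparison numbered 2 in edgeR over 24 mice, with RLE factors and with either other filter, 1 by limma-voom (Lipe), 1 with the replicate block (G0s2), 6 by DESeq2, 8 with only the groups compared and 7 without the 5 libraries. The share of all genes moved as well. It was 22.1% in edgeR over 24 mice, 22.3% with RLE factors and 19.8% and 22.4% with the other filters. By limma-voom it was 22.4%, with the replicate block 16% and by DESeq2 28.8%. It was 35% with only the groups compared and 40.3% without the 5 libraries. Without the 5 libraries the counts called were 2 in fl/fl, 3 in AKO and 6 averaged over genotypes, and 2, 4 and 6 by limma-voom; without a further mouse they ran from 0 to 2, 1 to 7 and 2 to 7. The same-numbered mice of different groups do not pair: their deviations from the group means had r of −0.534 to 0.714 (median 0.00112), over 0.1 in 15 of 36 pairs. With the replicate number as a block 0 members were called, and Cidec in fl/fl became 0.02.

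Some differences changed sign. Cidec between fl/fl diets was 0.01 with DESeq2, with RLE factors and without a filter, and 0.02 with only the groups compared, where Abhd5 was 0.01. G0s2 between genotypes on chow was −0.05 with limma-voom. Without the 5 libraries Abhd5 became 0.07 on chow, and on HFD AKO against fl/fl became 0.48 for Plin4, 0.16 for Lipe, 0.48 for G0s2, 0.29 for Pnpla2, −0.49 for Plin2, 0.15 for Plin1, 0.04 for Abhd5 and 0.27 for Mgll; the interaction became 0.42 for Plin4, 0.32 for G0s2, 0.34 for Pnpla2 and −0.35 for Plin2. The log2 ratios that changed sign were, on HFD between genotypes, G0s2 to Pnpla2 (0.17), Abhd5 to Pnpla2 (−0.28) and Plin2 to Plin1 (−0.62), and, between fl/fl diets, Lipe to Pnpla2 (−0.05).

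Relative to adipocyte markers, which shifts every gene by the same amount in a comparison (0.36 between fl/fl diets, 1.33 between AKO diets, −0.08 between genotypes on chow and 0.89 on HFD), the sign changed between fl/fl diets for Pnpla2 (0.02), Lipe (0.17), Mgll (0.21), Abhd5 (0.33), Plin1 (0.17) and Cidec (0.37). It changed between AKO diets for Pnpla2 (0.70), Lipe (0.16), Mgll (0.46), Abhd5 (1.3), G0s2 (0.28), Plin1 (0.39), Plin4 (0.12) and Cidec (0.46), and for G0s2 on chow (−0.09). Between genotypes on HFD it changed for Pnpla2 (0.59), Lipe (0.27), Mgll (0.46), Abhd5 (0.81), G0s2 (0.45), Plin1 (0.33), Plin4 (0.35) and Cidec (0.24).

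With 1 of 24 mice left out, the fl/fl diet difference ran from −0.72 to 0.26 for Plin4, −0.48 to 0.37 for Lipe, −0.59 to 0.14 for Pnpla2, −0.28 to 0.41 for Cidec, −0.34 to 0.24 for Plin1, −0.30 to 0.20 for Mgll and −0.10 to 0.06 for Abhd5. Abhd5 between AKO diets ran from −0.16 to 0.03. AKO against fl/fl on chow ran from −0.25 to 0.32 for Pnpla2, −0.11 to 0.63 for Plin4, −0.13 to 0.30 for G0s2, −0.35 to 0.06 for Plin2 and −0.16 to 0.03 for Abhd5; on HFD it ran from −0.07 to 0.36 for Plin2. The interaction of Abhd5 ran from −0.14 to 0.07. Among log2 ratios, between genotypes on chow Abhd5 to Pnpla2 ran from −0.35 to 0.03, Mgll to Lipe from −0.19 to 0.03 and Cidec to Plin1 from −0.03 to 0.08; Mgll to Lipe between fl/fl diets ran from −0.08 to 0.13 and Plin4 to Plin1 between genotypes on HFD from −0.12 to 0.10. Between AKO diets the signs of the other 8 members held in these fits. The cause of the changes was not tested. No member was below 79.5 CPM in any library, so depth did not limit its detection.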
